A study of Bos taurus with 47 samples.

Results

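A set of 209 transcripts stored in the bovine oocyte was followed across oocytes, embryos, blastocyst-derived cells and fibroblasts. They were abundant in oocytes, stayed in embryos made by in vitro fertilization (IVF) until the 8-cell stage and were low in IVF morulae. A gene was taken when its median normalized count in oocytes was at least 100 and its median in IVF 8-cell embryos was at least the oocyte median divided by 2. Its medians in IVF morulae and in IVF blastocyst-derived cells each had to be at most the oocyte median divided by 4. The 209 members were 2.69% of the 7779 genes with an oocyte median of at least 100, out of 20526 genes in all. The limit of 250 on the number of members was not reached, and 1 further gene that met the thresholds is not analysed here. The members were thus chosen by their medians in oocytes, IVF 8-cell embryos, IVF morulae and IVF derived cells, and comparisons among these groups are given as a description without a test.

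A mammalian oocyte stores mRNA that serves the first cleavages, when the embryonic genome is mostly silent. In the maternal-to-embryonic transition this store is degraded in steps while embryonic transcription takes over, which in cattle becomes extensive around the 8-cell stage. In somatic cell nuclear transfer (scNT) the enucleated oocyte supplies the same kind of store, but the nucleus comes from a differentiated cell.

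The scNT embryos were made by fusing 1 cultured fibroblast with an enucleated, in vitro matured oocyte, and were sampled as 2-cell, 8-cell, morula and blastocyst stages and as blastocyst-derived cells. IVF embryos of the same stages, and cells derived from IVF blastocysts, came from in vitro matured oocytes fertilized with Holstein semen. Unfertilized matured oocytes and the fibroblasts completed the 12 groups. The fibroblasts were a primary ear-biopsy culture from 1 Brahma Spanish cross bull, so the sire or nuclear donor and the method cannot be told apart. Embryos of both methods were cultured with bovine cumulus cells and collected in pools of 20 on days 2, 3, 6 and 8. There were 3 libraries of scNT morulae (replicates 2, 3 and 4) and 4 of every other group. The 47 libraries held 4608099 to 16642362 reads. No label ties a pool to separate animals, so the tests measure the spread between pools, which may be technical. In bulk samples, fewer cells of a type and less RNA per cell cannot be told apart.

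The genes carry Ensembl identifiers that the files do not pair with names, and 0 of 20526 could be matched in the reference annotation. Members are therefore described as a group, with few identifiers and no gene roles. For the same reason the labelled cell types, and the presence of cumulus cells or fibroblasts in the embryo pools, were not checked against marker genes. Levels are normalized counts that are not divided by transcript length, so they are compared for one transcript between samples and not between transcripts.

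The members' levels went down in steps. As medians over the members, scNT embryos held 101% of the oocyte level at the 2-cell stage, 83.7% at the 8-cell stage, 9.78% in morulae and 2.07% in blastocysts, and scNT blastocyst-derived cells held 2.38%. The IVF embryos held 93.1%, 62.9%, 21.3% and 2.79% at the same 4 stages, and IVF derived cells held 2.29%. The other 7570 oocyte-abundant genes kept more of their oocyte level, a difference that the choice of members largely set in IVF morulae. Of the 7570, 5125 were above the oocyte median divided by 2 there. The medians of all 7570 were 102%, 64.8% and 62.0% in scNT 8-cell embryos, morulae and blastocysts, and 91.6%, 68.3% and 63.1% in the IVF stages.

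"Cleared" fits the IVF morula only in part. A level of at most the oocyte median divided by 16 was reached by 28 members in scNT morulae and 0 in IVF morulae, and by 158 in scNT blastocysts and 153 in IVF blastocysts. In IVF 8-cell embryos 208 members were already below their oocyte median. Both groups helped to choose the members, so the start of the loss cannot be read from this count. In scNT 8-cell embryos, which took no part in the choice, 35 members were above their oocyte median. In IVF embryos the median log2 difference between morula and 8-cell embryos was -1.43, against -2.78 between blastocyst and morula, and 206 members had a lower mean in the IVF blastocyst than in the morula. The rule bounded the IVF 8-cell and morula levels but not the blastocyst level. These differences are therefore a description, and no timing is read from their sizes.

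**Figure D1:**
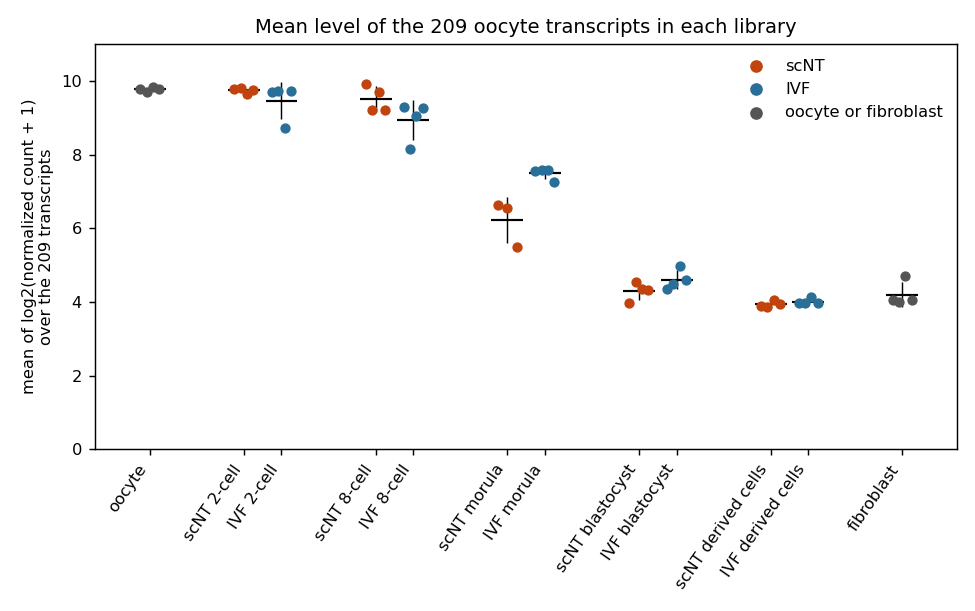
Mean of log2(normalized count + 1) over the 209 transcripts in each of the 47 libraries, by group. Points are libraries, horizontal lines are group means and vertical lines are 1 SD. The 3 scNT morula libraries lie between 5.50 and 6.62, below all 4 IVF morula libraries (7.26 to 7.58). IVF 2-cell replicate 3 (8.72) and IVF 8-cell replicate 2 (8.15) lie below the rest of their groups.

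Averaged over the members on the log2(normalized count + 1) scale, the level was 9.77 ± 0.057 in oocytes (SD, n = 4). The scNT embryos averaged 9.75 ± 0.066 at the 2-cell stage, 9.51 ± 0.348 at the 8-cell stage, 6.22 ± 0.625 in morulae (n = 3) and 4.29 ± 0.236 in blastocysts. The IVF embryos averaged 9.46 ± 0.495, 8.94 ± 0.537, 7.49 ± 0.154 and 4.60 ± 0.266 at these stages. Oocytes and scNT 2-cell embryos were thus the most even groups before the morula, and the IVF 2-cell and 8-cell groups were the least even. The members took 5.26% of all reads in oocytes, 0.460% in scNT morulae, 1.14% in IVF morulae, 0.140% in scNT blastocysts and 0.167% in IVF blastocysts.

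The spread in the IVF cleavage stages came from single libraries. IVF 2-cell replicate 3 averaged 8.72, while the other 3 lay between 9.70 and 9.73. IVF 8-cell replicate 2 averaged 8.15, while the other 3 lay between 9.06 and 9.29. In that library only 27 members were at or above the oocyte median divided by 2, against 208, 166 and 199 in replicates 1, 3 and 4. The rule used group medians, so the members were not held to that level in every library. In the 4 scNT 8-cell libraries, which took no part in the choice, 208, 190, 206 and 197 members were at that level.

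**Figure D2:**
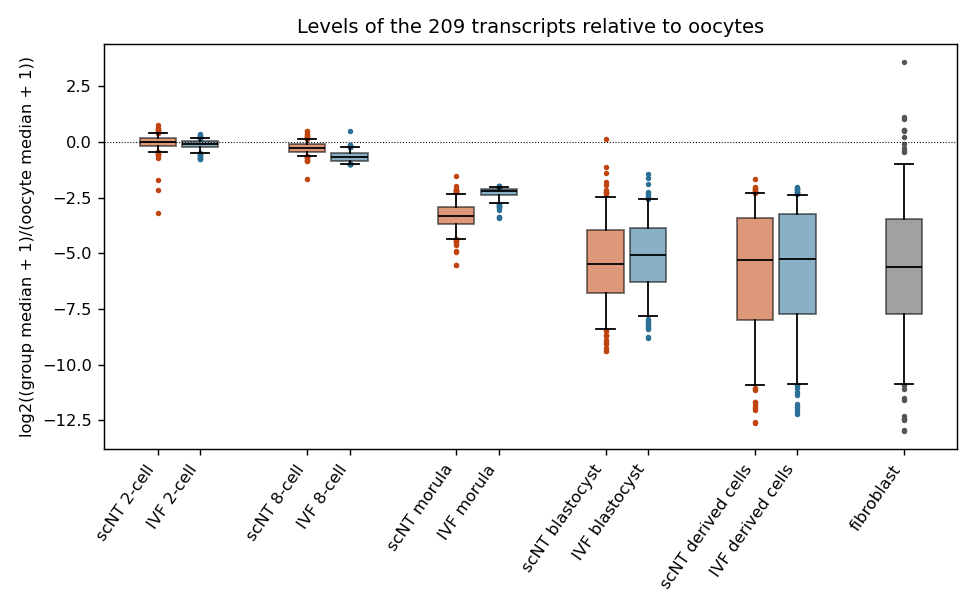
Level of the 209 transcripts relative to oocytes, as log2 of (group median + 1) over (oocyte median + 1), by group. Boxes span the quartiles with the median as a line, whiskers the 5th to 95th percentile, and points are transcripts outside them. A value of 0 on this axis means a level equal to the oocyte. The morula boxes are narrow, while the blastocyst, derived-cell and fibroblast boxes are wide. Transcripts with counts at or near 0 lie far below 0 on this axis.

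The thresholds cut through a continuous range. In oocytes the members nearest the minimum had medians of 101.3 and 108.6, and the nearest genes outside had 93.1 and 91.6. At the IVF 8-cell stage the nearest members held 50.1% and 50.2% of the oocyte level and the nearest genes outside 49.99% and 49.7%. In IVF morulae the values were 25% and 24.95% inside, against 25.04% and 25.05% outside, where 1586 genes met every other condition. In IVF derived cells they were 24.2% and 23.7% inside, against 27.2% and 27.3% outside, where only 32 genes met the rest.

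The step from the 8-cell stage to the morula in scNT embryos used no library that chose the members. All 209 members were tested with limma on log2(normalized count + 1), with Benjamini-Hochberg adjustment over 13702 genes and a threshold of 0.05. Of these, 207 fell and 0 rose, against 37.7% of all genes tested that were called lower and 31.2% called higher. The members' median log2 change was -3.32, with quartiles of -3.73 and -2.77, and the median of all genes was -0.17. Among the other oocyte-abundant genes 49.2% fell, with a median of -0.58. In 206 members every scNT morula library lay below every scNT 8-cell library, which held for 38.6% of all genes.

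The size of the fall was uneven but large in most members: 199 fell by at least 4-fold on that scale, 139 by at least 8-fold and 35 by at least 16-fold. The greatest fall was in ENSBTAG00000009675, which had 934.1, 583.0 and 208.5 normalized counts in scNT morulae, against 24900.1, 13865.6, 24082.6 and 13339.1 in scNT 8-cell embryos. No library of one stage came near the other, and the log2 change was -5.23 (SE 0.496, limma adjusted p = 9.73e-05). ENSBTAG00000021747 had 818.4, 855.8 and 108.8 normalized counts in scNT morulae, against 18063.5, 8908.5, 17474.4 and 10634.5 in scNT 8-cell embryos (log2 change -4.95, SE 0.712, adjusted p = 0.000555).

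At the other end, ENSBTAG00000005066 changed least, with 58.3, 63.5 and 66.5 normalized counts in scNT morulae, against 140.5, 82.0, 121.4 and 98.1 in scNT 8-cell embryos. The groups did not overlap, and the log2 change was -0.78 (SE 0.274, adjusted p = 0.0301). ENSBTAG00000027983 also fell modestly, to 172.1, 178.1 and 152.6 in scNT morulae, against 623.3, 434.4, 555.1 and 353.9 in scNT 8-cell embryos (log2 change -1.52, SE 0.236, adjusted p = 0.00053). The 2 members that did not pass the test were ENSBTAG00000007348 (log2 change -2.15, adjusted p = 0.0853) and ENSBTAG00000007596 (log2 change -2.68, adjusted p = 0.0518), named after their values were seen. Their changes were large, but their libraries overlapped between the stages.

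**Figure D3:**
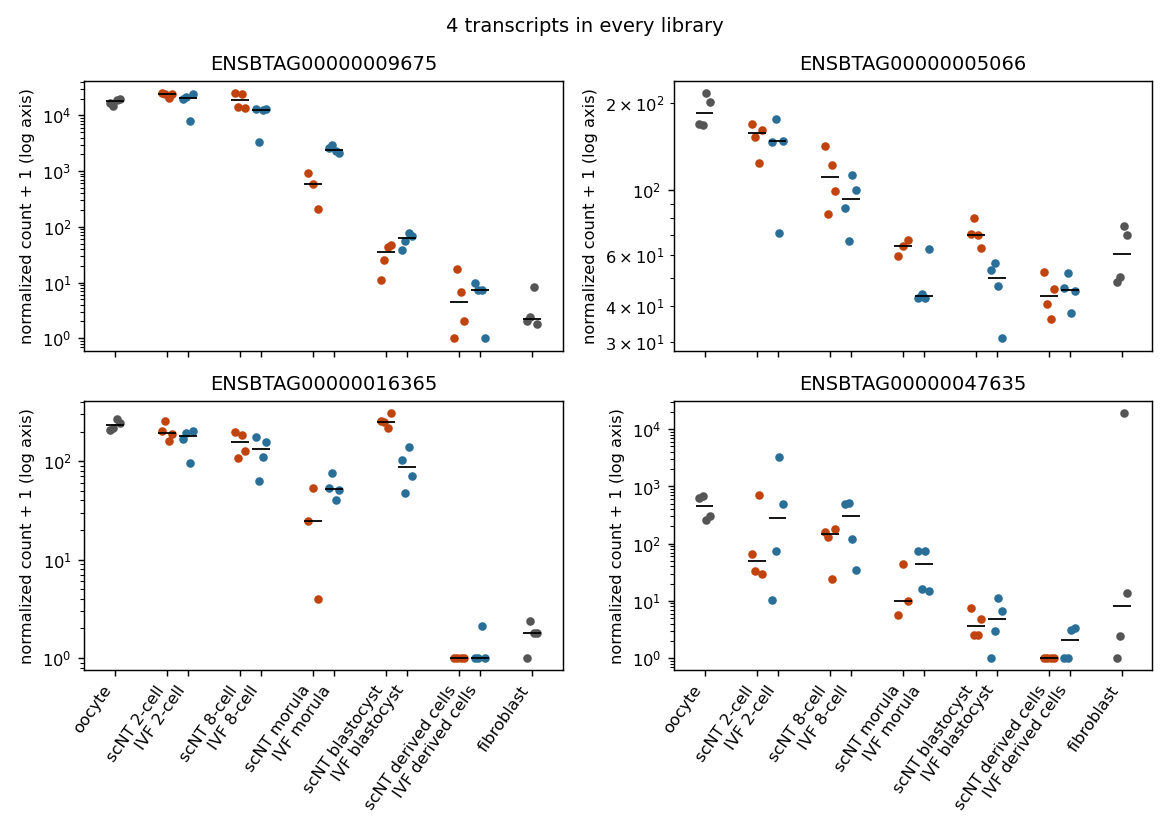
Normalized count + 1 of 4 transcripts in every library, on log axes that differ between panels. Points are libraries and lines are group medians, with scNT in orange, IVF in blue and oocytes and fibroblasts in grey. ENSBTAG00000009675 falls by the morula in every embryo library, ENSBTAG00000005066 falls little, ENSBTAG00000016365 is high again in scNT blastocysts (217.6 to 307.5), and ENSBTAG00000047635 varies widely between libraries of one group.

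In IVF embryos, the comparison of the blastocyst with the 2-cell stage also used no library that chose the members. The rule, however, required high levels just before and just after the 2-cell stage, and low levels just before and just after the blastocyst. A fall was therefore largely set by the choice of members. Members that were low in IVF blastocysts also passed the filter on low values only through their 2-cell values. The counts here are thus a description. Of 208 members tested, 207 fell and 0 rose, against 37.6% and 36.9% of the 13404 genes tested. The median log2 change was -4.85 for the members and 0.01 for all genes. The greatest fall was in ENSBTAG00000004725, which had 9.3, 12.2, 31.7 and 16.9 normalized counts in IVF blastocysts, against 7688.0, 7070.5, 3105.5 and 8027.0 in IVF 2-cell embryos (log2 change -8.50, SE 0.41, adjusted p = 4.15e-07). Every IVF blastocyst library was far below every IVF 2-cell library. ENSBTAG00000021747 also fell there (log2 change -8.40, SE 0.463, adjusted p = 1.03e-06). ENSBTAG00000007596 was not called and ENSBTAG00000007348 did not pass the filter on low values, the same pair as in the scNT morula step.

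In morulae most members were lower in scNT than in IVF. The IVF morula libraries helped to choose the members, so the values are given as a description and nothing is read from the calls. Of 209 members, limma called 112 lower in scNT morulae and 0 higher, beside 11.3% of all 13590 genes called lower and 7.37% called higher (1924 lower and 404 higher with equal library totals, against 1540 and 1002). The median log2 difference was -1.31 for the members and 0.05 for all genes, and 205 members had a difference below 0. Among the other oocyte-abundant genes 16.9% were called lower and 6.8% higher, with a median of -0.05, so lower calls were not limited to the members. In 149 members every scNT morula library lay below every IVF morula library, against 18.9% of all genes. Members were chosen to be low in IVF morulae, a choice that by itself favours differences toward higher in scNT, by an amount that was not tested. This comparison shares the scNT morula libraries with the scNT 8-cell to morula step.

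The count in morulae depended on single libraries although the direction did not. It was 70, 7, 47 and 52 without IVF morula replicate 1, 2, 3 or 4, and 106 to 117 without any one scNT morula library. The members' median log2 difference ranged from -1.43 to -0.94 in these 7 fits, and was -0.94 without scNT morula replicate 4, the library with the lowest member mean (5.50). Between libraries of equal number, the scNT mean of the members was lower by 0.95, 1.03 and 1.76 log2 units. With replicate numbers as a block, 0 members were called lower, beside 0.00736% of all genes, and the members' median was -1.30. The labels do not say that these numbers pair the morula libraries.

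ENSBTAG00000002407 had 75.3, 31.1 and 24.2 normalized counts in scNT morulae, against 236.0, 255.6, 284.4 and 188.6 in IVF morulae (log2 difference -2.60, SE 0.359). ENSBTAG00000039049 was at 6.6, 8.7 and 1.5 in scNT morulae and at 52.5, 38.6, 36.3 and 20.6 in IVF morulae (log2 difference -2.67, SE 0.551). Neither transcript overlapped between the groups. Only 4 members had a higher mean in scNT morulae, ENSBTAG00000005066, ENSBTAG00000007031, ENSBTAG00000007090 and ENSBTAG00000007348, with log2 differences of 0.43, 0.06, 0.01 and 0.17 and none called. These 4 were picked out after their values were seen.

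**Figure D4:**
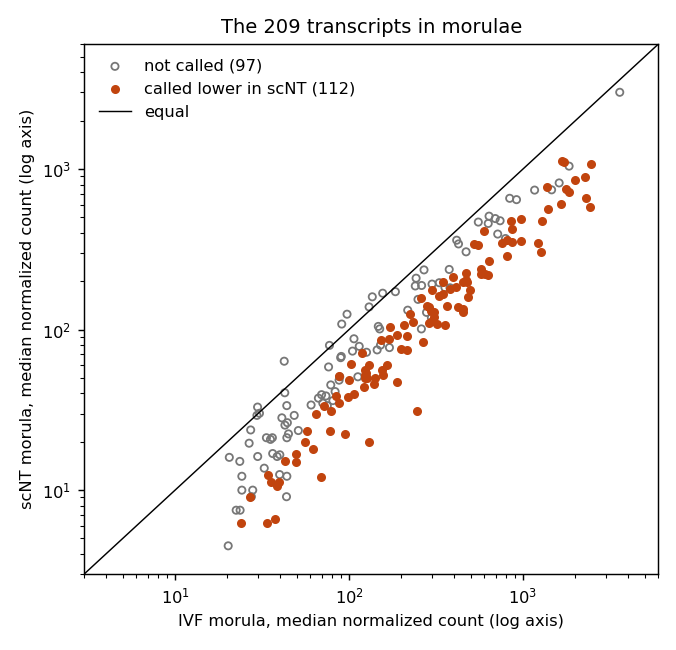
Median normalized count of each of the 209 transcripts in scNT morulae (vertical, log axis) and IVF morulae (horizontal, log axis). Filled points are the 112 called lower in scNT morulae, open points the 97 not called, and the line marks equal levels. Nearly all points lie below the line over the whole range of levels, and called ones occur at low as well as high counts.

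The step itself was also compared between methods, a comparison added after the values were seen. Both IVF groups in it helped to choose the members, so it too is a description and nothing is read from its calls. The 8-cell to morula change was called more negative in scNT than in IVF for 141 of 209 members and less negative for 0, beside 13.4% and 4.77% of the 14519 genes tested. The median difference between the steps was -1.88 on the log2 scale for the members and -0.02 for all genes, and 207 members were below 0. The count was 90 without scNT 8-cell replicate 1, 90 without scNT 8-cell replicate 3 and 89 without scNT morula replicate 4.

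Before the morula, the means of most members were higher in scNT, and no difference was called in the unblocked tests. The IVF 8-cell libraries helped to choose the members, for not being low there, so the 8-cell values are a description. At the 8-cell stage 205 members had a higher mean in scNT, with a median log2 difference of 0.59 for the members and 0.13 for all genes. The limma test called 0 members and 0 of all 13000 genes (0% in either direction). At an unadjusted limma p under 0.05, 41 of 209 members were higher in scNT and 0 lower, while 1642 of the 13000 genes differed in either direction. Over all genes edgeR called 0 and DESeq2 378. In 20 members all 4 scNT libraries lay above all 4 IVF libraries, against 3.14% of all genes. Without IVF 8-cell replicate 2, the low library, the members' median difference was 0.32 and 202 members were higher in scNT.

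Libraries of equal number deviated together at this stage, so the numbers were taken as pairs. Within pairs 1, 2 and 3 the scNT mean of the members was higher by 0.62, 1.06 and 0.65 log2 units, while in pair 4 the difference was -0.05. With pairs as a block, 1 member, ENSBTAG00000012184, was called higher in scNT and 0 lower, beside 0.1% of all genes called higher and 1.19% called lower. It had 11863.3, 5611.1, 7554.6 and 5838.7 normalized counts in the scNT libraries, against 5118.7, 2337.0, 3984.9 and 4170.2 in the IVF libraries. Every scNT library was above every IVF library. The log2 difference was 0.97, with an adjusted p of 0.0379 in the blocked limma fit and 0.371 in the unblocked one. It was named after its values were seen.

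At the 2-cell stage the median log2 difference between scNT and IVF was 0.30 for the members and 0.07 for all genes. The limma test called 0 of 209 members, and 4 of all 12195 genes were called higher in scNT (0.0328%) and 0 lower (0%). At an unadjusted limma p under 0.05, 7 of 209 members were higher in scNT and 0 lower, while 405 of the 12195 genes differed in either direction. Over all genes edgeR called 2 and DESeq2 9. The median difference fell to 0.03 without IVF 2-cell replicate 3. The pair differences were 0.09, 0.07, 0.93 and 0.05 log2 units, so pair 3 stood apart from the rest.

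Within scNT, little loss had passed the test by the 8-cell stage. Against scNT 2-cell embryos, 14 of 209 members fell and 0 rose (6.7%), beside 4.86% of all 12425 genes called lower and 0.821% called higher (583 lower and 225 higher with equal library totals, against 604 and 102), so the members' share was near the background. The median log2 change was -0.23 for the members and 0.03 for all genes, and 176 members were below 0. ENSBTAG00000000271 had 1186.0, 645.9, 1457.3 and 903.3 normalized counts in scNT 8-cell embryos, against 1725.0, 2040.7, 1935.8 and 2462.1 in scNT 2-cell embryos (log2 change -1.01, SE 0.229, adjusted p = 0.025). ENSBTAG00000009469 also fell (log2 change -1.32, SE 0.316, adjusted p = 0.044). The count of 14 became 2, 0 and 0 without scNT 2-cell replicate 1, 2 or 4. It became 24, 4, 23 and 4 without scNT 8-cell replicate 1, 2, 3 or 4.

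Between morula and blastocyst the scNT members declined further. Only 183 of the 209 passed the filter on low values and 26 were not tested, and a member that passed through its morula values had to differ, so the counts here are a description. Of the 183, 124 fell and 5 rose, beside 26.1% and 21.6% of the 13236 genes tested. With equal library totals the calls over all genes were 5777 lower and 1518 higher, against 3460 and 2855. The median log2 changes were -1.59 for these members and -0.09 for all genes. With no filter all 209 entered, of which 134 fell and 5 rose, with a median of -1.83. ENSBTAG00000015737 had 6.6, 15.5, 7.7 and 25.4 normalized counts in scNT blastocysts, against 714.9, 807.2 and 157.1 in scNT morulae (log2 change -5.11, SE 0.656, adjusted p = 0.000663). ENSBTAG00000047473 fell likewise (log2 change -5.51, SE 0.913, adjusted p = 0.00261).

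A few members went the other way. ENSBTAG00000016365 had 253.6, 247.8, 217.6 and 307.5 normalized counts in scNT blastocysts, against 23.5, 52.3 and 3.0 in scNT morulae (log2 change 3.88, SE 0.793, adjusted p = 0.00648). Its scNT blastocyst values were close to the 208.8, 218.0, 265.2 and 243.0 of oocytes, and it was the only member with a blastocyst median above its oocyte median. ENSBTAG00000021428 rose to 38.1, 20.1, 32.2 and 34.3 in scNT blastocysts, against 8.5, 6.2 and 6.0 in scNT morulae (log2 change 2.00, SE 0.383, adjusted p = 0.00283). The remaining 3 that rose, ENSBTAG00000004710, ENSBTAG00000010597 and ENSBTAG00000012838, changed by 1.15, 1.46 and 1.32 on the log2 scale and were picked out after their values were seen. The count of 5 became 3 without scNT morula replicate 4 and 3 without scNT blastocyst replicate 1, 3 or 4.

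Few differences were called between blastocysts of the 2 methods. Of the 136 members tested, 6 were called lower in scNT blastocysts and 1 higher, beside 3.42% and 2.53% of all 12607 genes (928 lower and 175 higher with equal library totals, against 431 and 319). The other 73 members were not tested. Members such as ENSBTAG00000010947, under 10 in all scNT blastocyst libraries, passed the filter on low values only through their IVF values and had to differ. The counts here are therefore a description. With no filter all 209 entered, of which 6 were called lower and 1 higher. The median log2 difference was -0.20 for the tested members and -0.01 for all genes. ENSBTAG00000010947 had 5.0, 6.2, 7.7 and 3.8 normalized counts in scNT blastocysts, against 18.6, 24.5, 38.1 and 15.0 in IVF blastocysts (log2 difference -1.86, SE 0.432, adjusted p = 0.0264). ENSBTAG00000015865 was also lower (log2 difference -1.23, SE 0.312, adjusted p = 0.0386). The 1 member called higher was ENSBTAG00000016365, with 102.3, 46.9, 137.1 and 69.4 in IVF blastocysts and no overlap (log2 difference 1.62, SE 0.282, adjusted p = 0.00885). The 6 lower calls became 1 without IVF blastocyst replicate 2 or 3, 2 without scNT blastocyst replicate 1 and 3 without replicate 4. The 1 higher call became 2 without IVF blastocyst replicate 3 and 3 without scNT blastocyst replicate 2.

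Most of the transcripts that were low in blastocysts were low in both methods. Medians under 10 normalized counts were found for 85 members in scNT blastocysts and 69 in IVF blastocysts, and 65 were shared, 76.5% of the scNT list and 94.2% of the IVF list. Across the members, the changes of the scNT and IVF embryos from 2-cell stage to blastocyst, which share no library, ranked alike (Spearman rho 0.94, n = 209 transcripts). The rho was 0.98 among the other oocyte-abundant genes, so this likeness was not particular to the members. For the 2-cell to 8-cell change it was 0.49, against 0.56 among the other genes. These are descriptions across transcripts measured in the same libraries.

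In derived cells the members were divided, by a cut at a median of 10 normalized counts, into low ones and present ones. Of the 209, 91 had medians under 10 normalized counts in derived cells of both methods, 108 had at least 10 in both, and 10 lay on different sides. Of the 91 low ones, 84 (92.3%) were also under 10 in fibroblasts, and of the 108 present ones, 95 (88.0%) were at 10 or more in fibroblasts. The low ones had a median level of 0.95 in scNT derived cells, 1.0 in IVF derived cells and 0.75 in fibroblasts. The present ones had 93.7 in scNT derived cells, 96.2 in IVF derived cells and 101 in fibroblasts.

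Both groups of members had lost most of their oocyte level by the blastocyst. The low ones had a median level of 500.1 in oocytes, 47.0 in scNT morulae and 88.4 in IVF morulae, and 5.6 in scNT blastocysts and 7.5 in IVF blastocysts. The present ones had 1190 in oocytes, 138.9 in scNT morulae and 265.4 in IVF morulae, and 57.7 in scNT blastocysts and 60.6 in IVF blastocysts. As changes within each transcript between 2-cell embryo and blastocyst, the median was -6.55 in scNT and -6.04 in IVF embryos for the low ones on the log2 scale. For the present ones it was -4.34 in scNT and -3.99 in IVF. The IVF derived cells helped to choose all members, so these groups are a description without a test.

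The step from scNT blastocysts to scNT derived cells could be tested for 123 members, while 86 did not pass the filter. A member near 0 in blastocysts passed only through its derived-cell values and had to differ, so these counts are a description too. Of the 123, 54 rose and 32 fell, beside 32.9% of all 12786 genes called higher and 34.1% called lower. With equal library totals the calls over all genes were 5347 higher and 3156 lower, against 4207 and 4364. The median log2 change was 0.26 for these members and -0.03 for all genes. With no filter, 55 of the 209 rose and 66 fell, and the members' median turned to -0.24. Of the 54 that rose, 46 were at 10 or more in fibroblasts. All 54 were among the 108 members present in derived cells of both methods, of which 95 (88.0%) were at that level. The share was thus not particular to those that rose. In all 54 the IVF derived cells also had a higher mean than the IVF blastocysts. Their level stayed low beside the oocyte, with a median of 11.2% of the oocyte level in scNT derived cells. Of the 32 that fell, 31 also had a lower mean in IVF derived cells than in IVF blastocysts.

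The greatest rise was in ENSBTAG00000039509, which had 97.1, 20.2, 125.7 and 88.7 normalized counts in scNT derived cells, against 0.0, 0.0, 3.1 and 1.3 in scNT blastocysts (log2 change 5.31, SE 0.64, adjusted p = 2.05e-05). ENSBTAG00000007878 had 61.0, 140.6, 59.9 and 56.3 in scNT derived cells, against 0.0, 12.4, 0.0 and 3.8 in scNT blastocysts (log2 change 4.72, SE 0.783, adjusted p = 0.000312). In both, every derived-cell library was above every blastocyst library. The greatest fall was in ENSBTAG00000016365, the transcript that was high again in scNT blastocysts, which was at 0 in all 4 scNT derived-cell libraries (log2 change -8.00, SE 0.296, adjusted p = 2.7e-09). ENSBTAG00000037699 had 0.9, 1.8, 7.0 and 1.9 in scNT derived cells, against 346.4, 394.9, 326.4 and 418.1 in scNT blastocysts (log2 change -6.80, SE 0.398, adjusted p = 7.7e-08).

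**Figure D5:**
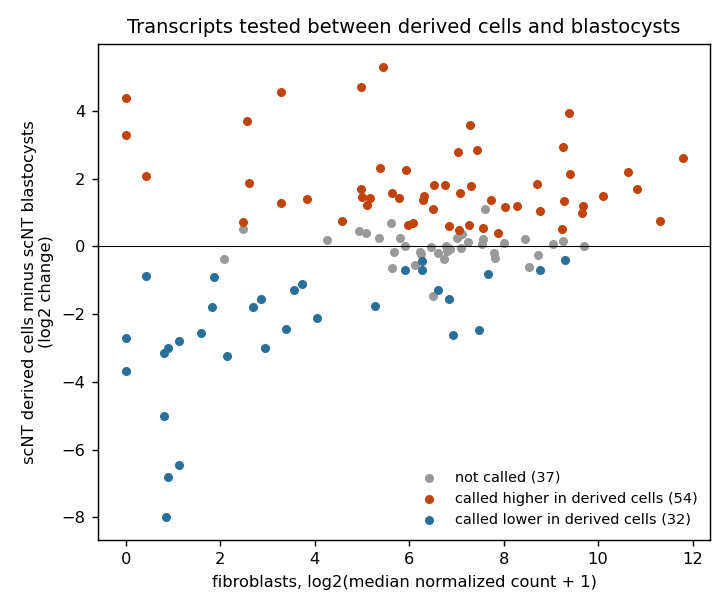
Change of the 123 tested transcripts between scNT derived cells and scNT blastocysts (vertical, log2, derived cells minus blastocysts) against their level in fibroblasts (horizontal, log2(median normalized count + 1)). Orange marks the 54 called higher in derived cells, blue the 32 called lower and grey the 37 not called. Most transcripts that rose were at 10 or more normalized counts in fibroblasts (46 of 54), while those that fell were at 10 or more in 14 of 32. All 54 were among the 108 members present in derived cells of both methods, of which 95 were at 10 or more in fibroblasts. Of the 32, 15 were among the 91 members low in derived cells of both methods.

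Fibroblasts, which were not used to choose the members, held most of them at a small part of the oocyte level. The member median in fibroblasts was 1.76% of the oocyte level, and 190 members (90.9%) were at or below the oocyte median divided by 4, against 27.6% of the other oocyte-abundant genes. The rule required that level in IVF derived cells, where 100% of the members and 25.8% of the others met it. The others did not have to meet it, so the contrasts in fibroblasts are descriptions. A fibroblast median of at least 10 normalized counts was found for 50.7% of the members and 91.6% of the others. Only 7 members were higher in fibroblasts than in oocytes. Relative to oocytes, the members were thus mostly low in a differentiated cell as well as in the IVF derived cells, for which they had been chosen to be low.

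A set of 3 members behaved unlike the rest and was found after the values were seen. ENSBTAG00000007348, ENSBTAG00000007596 and ENSBTAG00000047635 were the only members at least 2 times the next library in IVF 2-cell replicate 3, a library in which only 5 members had their highest IVF 2-cell value. ENSBTAG00000047635 had 64.9, 32.8, 716.8 and 28.4 normalized counts in scNT 2-cell libraries 1 to 4, against 9.5, 74.7, 3256.7 and 488.0 in the IVF ones. Replicate 3 was thus the highest library in both methods. The other 2 had the same pattern at this stage, with 410.5 and 355.9 in scNT replicate 3 and 873.9 and 1420.0 in IVF replicate 3 for ENSBTAG00000007348 and ENSBTAG00000007596.

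The 3 were also high in fibroblast replicate 3, at 3023.2 for ENSBTAG00000007348, 9481.9 for ENSBTAG00000007596 and 19178.2 for ENSBTAG00000047635. In the other 3 fibroblast libraries ENSBTAG00000047635 was at 0.0, 1.4 and 12.8, while ENSBTAG00000007596 was at 1603.7, 1248.2 and 1563.4. A high value in this library was not limited to the 3, since 14 members were at least 10 times the next fibroblast library there, and ENSBTAG00000007596, at 5.91 times, was not one of them. In oocytes the 3 were more even than in IVF 2-cell embryos. Ratios between libraries of these members, also those above, were taken with 1 added to each value. The highest oocyte library was 6.84, 3.1 and 2.62 times the lowest for ENSBTAG00000007348, ENSBTAG00000007596 and ENSBTAG00000047635, against 1.33 times as a median over all members. In IVF 2-cell embryos the ratios were 114, 490.0 and 310 for the 3, against a median of 2.46. The members took 0.859% of the reads in fibroblast replicate 3, and 0.498% without the 3, while the other fibroblast libraries without the 3 were at 0.264% to 0.280%. What these libraries share was not tested.

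Members with low and high counts in oocytes changed by similar medians. Divided by oocyte median into groups of 70, 69 and 70 members, from low to high, the members changed between scNT 8-cell embryos and scNT morulae by medians of -3.25, -3.13 and -3.51 on the log2 scale. Their shares of the oocyte level were 10.3%, 10.8% and 9.0% in scNT morulae and 21.1%, 21.3% and 21.3% in IVF morulae. All 3 groups thus lay lower in scNT morulae than in IVF morulae.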

How the data were processed

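mRNA libraries of 12 groups were compared, grouped by sample title. Per the labels' protocols, libraries were made from the large fraction of total RNA with a low-input kit and several rounds of PCR. The submitters' processing notes name STAR, DESeq2, FastQC and MultiQC and the genome build UMD3.1. Their roles and versions, and the annotation, were not given in the sources used here. As deposited by the authors, the signal is 1 normalized count per gene and library, with 1 decimal, which within each library is a whole multiple of 1 step (100% of values within a tolerance of 0.05), so that whole reads were recovered. Reads are not taken as independent molecules, so depth covers counting error only.

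A gene entered a test when its value reached 10 in a number of libraries equal to the smaller group's. Tests used limma 3.58.1 in R 4.3.3 (trend, robust, two-sided) on log2(value + 1), which understates changes of low genes, with the 2 groups compared and no block, and p was adjusted over all genes. edgeR 4.0.16 and DESeq2 1.42.0 on the recovered reads, other pseudocounts, filters and scalings, a replicate block and leaving out each library were alternatives. The fit was tested on simulated data. Deviations of libraries of equal number correlated at 0.231 to 0.563 between scNT and IVF 8-cell embryos and at 0.118 to 0.683 at the 2-cell stage, so the numbers were taken to pair these groups, from the data and not the labels.

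The members and lists were chosen with earlier results of these data known. Named pathway and marker lists could not be used because no identifier matched. Identifiers were printed by a fixed rule, at most 2 per direction and comparison (the largest changes called and, in the scNT 8-cell to morula step, the smallest), except where the text says that they were picked after their values were seen.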

Additional observations from a re-analysis of the deposited data

Results flagged for a closer look

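In 4 groups, 1 library stood apart from the rest in the members' mean log2 level by Dixon's gap-to-range criterion at 95%. IVF 8-cell replicate 2 did not pass it, and scNT morulae, with 3 libraries, were not examined. Fibroblast replicate 3 was highest at 4.71 (the others 4.00 to 4.06), and was 4.58 without the 3 variable members. IVF 2-cell replicate 3 was lowest at 8.72 (the others 9.70 to 9.73). IVF derived-cell replicate 3 was highest at 4.13 (the others 3.97). IVF morula replicate 4 was lowest at 7.26 (the others 7.55 to 7.58).

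Among the named transcripts, ENSBTAG00000037699 was highest in scNT derived-cell replicate 3, at 7.0 normalized counts, and ENSBTAG00000007878 in scNT derived-cell replicate 2, at 140.6. These 6 came from 43 groups of libraries examined, and chance alone marks about 1 in 20. The step from 8-cell embryo to morula was called more negative in scNT than in IVF for 141 members, by an interaction term in limma. Its libraries partly chose the members, so this count is a description.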

How the results depend on the processing

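Of 332 alternatives, 295 kept the count of members called within 1.5 times and 37 did not. Many of the 295 set a count of 0 against 0, as in both directions between scNT and IVF 2-cell embryos. The tally is therefore not a measure of how stable the other counts were. No median of the members changed sign under equal library totals. That scaling moved the median of all genes from 0.05 to -0.11 between scNT and IVF morulae, from -0.09 to -0.49 between scNT blastocysts and morulae, from -0.01 to -0.16 between scNT and IVF blastocysts, from -0.03 to 0.26 between scNT derived cells and blastocysts, and from 0.01 to -0.29 between IVF blastocysts and 2-cell embryos. The causes of these shifts were not tested. Choosing by group means gave 171 members (151 shared) and equal totals 164 (154 shared).

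Replicate numbers were not taken to pair the other groups. A replicate block gave 0 lower calls between scNT and IVF morulae (0.00736% of all genes), with a median of -1.30 against -1.31. It gave 2 lower between scNT 8-cell and 2-cell embryos (2.25% of all genes) and 2 higher between scNT blastocysts and morulae (12.9%). Every library correlated best with its own number only between scNT and IVF 8-cell embryos (4 of 4), where the block gave 1 higher call. The block moved no other count by over 1.5 times, and at the 2-cell stage it called 0. DESeq2 called 30 members lower between scNT 8-cell and 2-cell embryos and 2 higher between scNT and IVF blastocysts. A filter at 50 gave 69 lower in scNT blastocysts against morulae, 3 lower in scNT against IVF blastocysts, and 17 lower and 29 higher in scNT derived cells against blastocysts, where no filter gave 66 lower. Equal totals gave 2 higher in scNT blastocysts against morulae and 12 lower in scNT against IVF blastocysts.

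Leaving out 1 library gave 205 to 208 lower for scNT morulae against 8-cell embryos, 206 to 208 for IVF blastocysts against 2-cell embryos, 7 to 117 for scNT against IVF morulae, 0 to 24 for scNT 8-cell against 2-cell embryos and 89 to 158 for the difference between steps. It gave 98 to 155 lower and 3 to 6 higher for scNT blastocysts against morulae, 1 to 5 lower and 1 to 3 higher for scNT against IVF blastocysts, and 30 to 41 lower and 46 to 54 higher for scNT derived cells against blastocysts. At these depths 26, 73 and 86 members had too few values of at least 10 to be tested in the blastocyst and derived-cell comparisons, and no statement is made on their change there.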
